A study of Mus musculus with 6 samples.

Results

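The 39 protein-coding Hox genes were followed in mouse handpads, the part of the embryonic forelimb that becomes the hand (the autopod). They were all genes with a symbol of Hox, a cluster letter a to d and a number, and they were 39 of the 34989 genes with a value in these libraries. Of the 39, 38 passed the filter on low counts and were tested among 16938 genes. The one left out was Hoxb13, which held 0 TPM in 2 knockout libraries and 0.0118 TPM in the third, against 0 TPM in every wild-type library.

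The data were polyadenylated RNA libraries of C57BL/6 mouse handpads at embryonic stage E14.5, from 3 Grhl3 knockout (Grhl3-/-) samples and 3 wild-type samples with no other allele or agent named. Grhl3 encodes a grainyhead-like transcription factor of the surface ectoderm. The labels name neither the deleted exons, nor a tissue to which the deletion was limited, nor whether a sample was 1 embryo or a pool. The p-values therefore measure the spread between these libraries alone, and that spread may be technical.

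Hox genes encode homeodomain transcription factors that give cells a position along the body and limb axes. In mammals they lie in the HoxA, HoxB, HoxC and HoxD clusters, and genes of the same number in different clusters (a paralog group) descend from 1 ancestral gene. Group 1 sits at the 3' end of a cluster and group 13 at the 5' end. In build mm10 HoxA lies on chromosome 6, HoxB on 11, HoxC on 15 and HoxD on 2. In the limb bud the HoxA and HoxD genes of groups 9 to 13 pattern the skeleton: groups 9 and 10 act mainly in the upper arm, group 11 in the forearm, and group 13, with Hoxa13 and Hoxd13, in the hand, where changes in Hoxd13 alter the digits.

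The stretch of the homeobox that encodes the DNA-contacting helix is shown for members of the groups that carried most of the signal or lay apart between genotypes. Each line is 45 bases of the 180-base homeobox, 5' to 3', taken from GENCODE transcripts of build GRCm38 (mm10); capitals mark the codons of the conserved core of the helix.
Hoxd13: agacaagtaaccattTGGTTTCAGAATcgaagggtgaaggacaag
Hoxa13: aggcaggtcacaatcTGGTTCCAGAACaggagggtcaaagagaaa
Hoxc13: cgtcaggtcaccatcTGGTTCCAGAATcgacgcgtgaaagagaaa
Hoxa11: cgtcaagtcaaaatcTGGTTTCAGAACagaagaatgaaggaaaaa
Hoxd11: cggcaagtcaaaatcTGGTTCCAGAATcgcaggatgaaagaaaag
Hoxa10: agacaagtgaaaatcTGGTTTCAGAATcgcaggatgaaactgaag
Hoxd10: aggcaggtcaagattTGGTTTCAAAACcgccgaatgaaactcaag
Hoxc8: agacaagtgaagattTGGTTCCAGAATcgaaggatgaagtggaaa

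Over the whole homeobox, members of the same paralog group shared a median of 80.6% of bases (67.2% to 93.9% over 42 pairs), and members of different groups shared a median of 60.6% (46.1% to 88.9% over 699 pairs). Hoxa13 and Hoxd13 shared 73.9%, Hoxa11 and Hoxd11 80.6%, and Hoxa10 and Hoxd10 78.9%. Despite this likeness, few stretches of 31 bases were shared between Hox transcripts of different genes. Such words made up 12.1% of those of Hoxd4, 9.26% of Hoxd3, 7.34% of Hoxc10, 4.55% of Hoxc5 and 3.32% of Hoxa6, and under 1% in each of the other members. By this measure alone, values of these 5 genes are less certain than those of the rest. Words shared with genes outside the family were not counted. Same-strand exons of Gm28308 cover 267 of the 1775 exonic bases of Hoxa2 and 482 of the 6014 of Hoxa3. Those of Gm28230 cover 2225 of the 4191 exonic bases of Hoxd3 and 1154 of the 2948 of Hoxd4. Both of these genes are in the data, so values of Hoxa2 and Hoxa3 are less certain too.

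In wild-type handpads the Hox genes were dominated by the 5' ends of HoxA and HoxD. Levels are given in TPM, a length-corrected share of a library, so that genes can be set beside each other. Groups 9 to 13 held 91.5% ± 0.88 of the summed Hox TPM in knockout libraries and 92.0% ± 0.48 in wild-type libraries (SD, n = 3 each). HoxD held 56.1% ± 3.4 in knockout and 53.4% ± 3.6 in wild-type libraries, and HoxA held 36.7% ± 3.1 in knockout and 41.6% ± 3.6 in wild-type libraries. HoxC held 5.34% ± 0.46 in knockout and 3.43% ± 0.67 in wild-type libraries, and HoxB held 1.85% ± 0.16 in knockout and 1.54% ± 0.24 in wild-type libraries. The ranges of the HoxA, HoxB and HoxD shares overlapped between genotypes. The HoxC share was 5.16%, 5.01% and 5.86% in knockout libraries, against 2.98%, 4.2% and 3.13% in wild-type libraries, with no overlap. The summed HoxC TPM itself did overlap, at 25.4, 28.8 and 24.5 in knockout against 15.7, 25.3 and 19.6 in wild-type libraries. That of HoxA did not overlap, at 193, 191 and 158 in knockout against 199, 256 and 281 in wild-type libraries. The summed TPM of HoxB and that of HoxD overlapped.

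**Figure D1:**
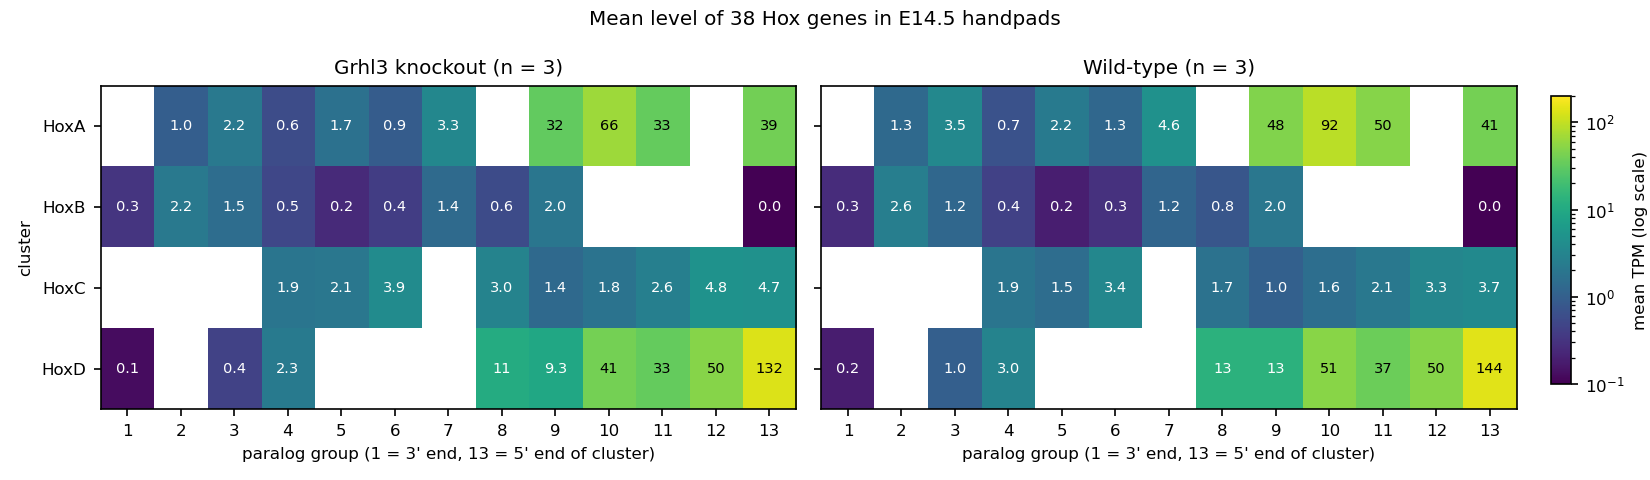
Mean TPM (n = 3 libraries, colour on a log scale, value printed in each square) of 38 of the 39 Hox genes by cluster (rows) and paralog group (columns), Grhl3 knockout on the left and wild-type on the right. The brightest squares in both panels are Hoxd13 at 132 TPM in knockout and 144 TPM in wild-type handpads, and the other bright squares lie in HoxA and HoxD from group 8 upward.

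Hoxd13 (chr2:74668310-74671599, plus strand), the gene at the 5' end of HoxD, had the highest level of all 39 members, 131, 168 and 97.4 TPM in knockout libraries and 145, 144 and 142 TPM in wild-type libraries. In wild-type handpads Hoxa10 was next at 92.2 ± 10.3 TPM (SD, n = 3), and the ranges of Hoxd13, Hoxa10 and the next gene did not overlap. Below these lay Hoxd10 at 51.3 ± 2.8 TPM, Hoxa11 at 50.0 ± 8.7, Hoxd12 at 49.6 ± 0.75, Hoxa9 at 47.8 ± 13.8, Hoxa13 at 41.3 ± 6.8 and Hoxd11 at 36.6 ± 5.8 in wild-type libraries. Neighbours in this order overlapped in range, while Hoxd10 and Hoxd12 lay wholly above both Hoxa13 and Hoxd11, and Hoxa11 wholly above Hoxd11. A gap without overlap followed, down to Hoxd8 at 13.2 ± 1.1 TPM and Hoxd9 at 13.2 ± 1.0 TPM, and a further gap separated Hoxd9 from Hoxa7 at 4.61 ± 1.5 TPM. Hoxd13 was above Hoxa13, the other highly expressed gene of group 13, by 2.88, 3.73 and 3.53 fold in knockout libraries and by 4.31, 3.10 and 3.23 fold in wild-type libraries, ranges that overlap.

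The rest of the family was low. Of the 39 members, 10 had a wild-type mean of at least 10 TPM, 20 lay between 1 and 10 TPM and 9 lay under 1 TPM. Of the 38 neighbouring pairs in the wild-type order, 32 overlapped in range. All 10 of the high genes were HoxA or HoxD genes from group 8 upward. By wild-type mean, the highest HoxB gene was Hoxb2 at 2.17 ± 0.37 TPM in knockout and 2.57 ± 0.64 TPM in wild-type libraries, and the highest HoxC gene was Hoxc13 at 4.71 ± 0.16 TPM in knockout and 3.66 ± 1.1 TPM in wild-type libraries. Hoxc13 is known for its role in nails and hair.

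**Figure D2:**
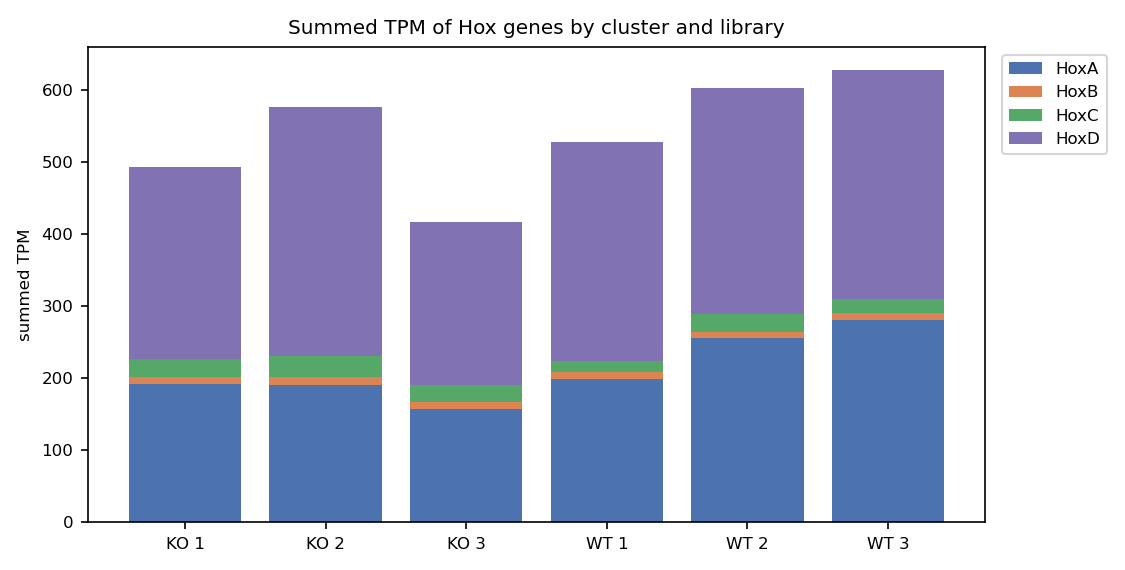
Summed TPM of the Hox genes of each cluster in each library, 3 Grhl3 knockout libraries (KO) on the left and 3 wild-type libraries (WT) on the right, stacked HoxA, HoxB, HoxC and HoxD from the bottom. HoxA and HoxD make up nearly all of every bar, and the third knockout library has the shortest bar at 417 TPM.

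Several genes were listed with more than 1 transcript. Hoxd13 and Hoxa11 each had almost all of their TPM in 1 coding transcript. In Hoxa10 a transcript annotated as processed, with no coding frame, held 41.5% ± 2.8 of the TPM in knockout and 46.6% ± 7.2 in wild-type libraries (SD, n = 3 each), and the most abundant coding transcript held 37.4% ± 6.4 in knockout and 37.3% ± 6.0 in wild-type libraries. In Hoxd11 such a processed transcript held 47.2% ± 2.8 in knockout and 50.1% ± 3.5 in wild-type libraries. Of 87 Hox transcripts, 59 were tested and none was called, with 1 of all 47052 tested transcripts called (0.00213%). An unadjusted p under 0.05 was seen for 5 Hox transcripts. The share of all transcripts at that p is not given here, so the 5 cannot be set against it. Antisense transcripts overlap some exons, 800 of the 2287 exonic bases of Hoxa11 among them, and Hoxa11os was not analysed here. Whether the counting used strand is not given in the sources used here, so sense and antisense reads could not be told apart.

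The genotype labels were checked on Grhl3 itself, which had 3.11, 2.86 and 2.95 CPM in knockout libraries against 14.3, 45.7 and 18.5 CPM in wild-type libraries (log2 fold change -3.14, SE 0.41, adjusted p = 0.0221, edgeR's quasi-likelihood test). Libraries held 38052692 to 56037639 estimated counts. The first wild-type library stood apart, with 9.29% of its counts in ribosomal protein genes against 5.95% to 8.13% in the other 5 and a mean transcript length per count of 3148 bases against 3347 to 3625. Counts of 4 Y-linked genes summed to 3.45 to 4.49 CPM in knockout libraries and to 5.58, 283 and 327 CPM in wild-type libraries. The high sums were confined to wild-type libraries, so sex is partly confounded with genotype. In the comparisons below, differences by genotype and by sex cannot be fully told apart. Tbx5, a marker of the forelimb, was at 123, 113 and 104 CPM in knockout and 128, 143 and 127 CPM in wild-type libraries, and the hindlimb markers Tbx4 and Pitx1 summed to 24.6, 24 and 25.3 CPM in knockout and 28.2, 24.9 and 23.6 CPM in wild-type libraries. The 10 limb mesenchyme markers had a median log2 fold change of -0.0069. The 4 liver markers summed to 31.9, 74.4 and 5.31 CPM in knockout libraries against 3.59, 3.59 and 2.81 CPM in wild-type libraries.

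Knockout and wild-type libraries were then compared on counts scaled to CPM, tested by edgeR's quasi-likelihood test with adjustment over all 16938 genes. None of the 38 Hox genes was called at an adjusted p under 0.05, where 0.431% of all genes were called, nor at an adjusted p under 0.1, where 0.667% of all genes were called. At an unadjusted p under 0.05, 6 Hox genes were lower in the knockout and 4 were higher, 26.3% of the 38 against 7.22% of all genes (3.41% lower and 3.81% higher). By direction, 10 of 11 HoxA genes and 8 of 9 HoxD genes had negative fold changes, whereas all 9 HoxC genes and 6 of 9 HoxB genes had positive ones, against 48.8% positive over all genes. The median log2 fold change was -0.39 for HoxA, -0.28 for HoxD, 0.39 for HoxC, 0.24 for HoxB and -0.0045 over all genes. The number of lower genes at this p was 3 where knockout replicate 1 or wild-type replicate 3 was left out. Without any 1 of the 3 knockout libraries, or without wild-type replicate 1 or 3, the number of higher genes was 2. Without wild-type replicate 1, the library that stood apart, 3 of 11 HoxA, 3 of 9 HoxD and all 9 HoxC genes had positive fold changes. The 5 genes Hoxa9, Hoxa10, Hoxa11, Hoxc8 and Hoxc9 stayed at an unadjusted p under 0.05 in all 6 edgeR fits with 1 library left out. Over all 22 alternatives Hoxa11 alone of them did so, with a largest p of 0.0125, against 0.165 for Hoxa9, 0.109 for Hoxa10, 0.115 for Hoxc8 and 0.208 for Hoxc9 (edgeR or limma). Log2 fold changes over these alternatives ran between -0.57 and -0.43 for Hoxa11, -0.55 and -0.24 for Hoxa9, -0.49 and -0.24 for Hoxa10, 0.55 and 1.003 for Hoxc8, and 0.25 and 0.87 for Hoxc9.

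**Figure D3:**
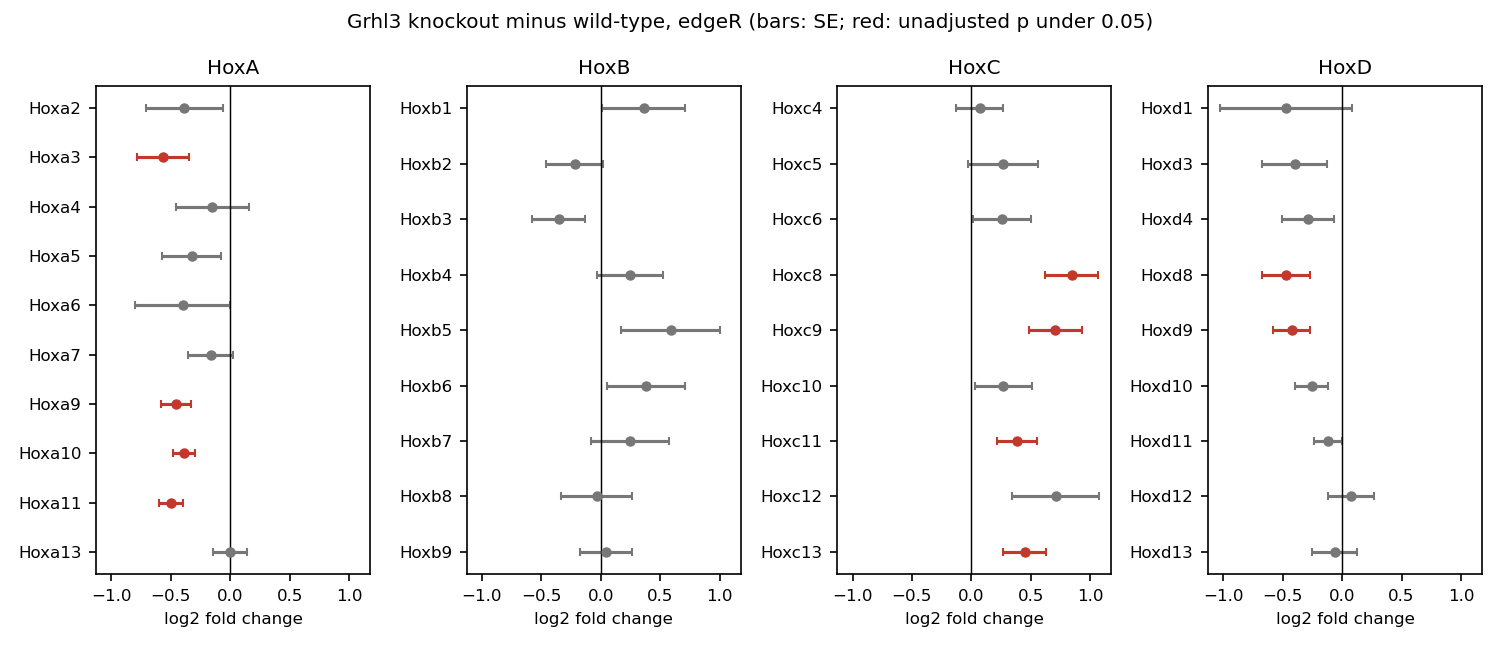
Log2 fold change, Grhl3 knockout minus wild-type, with its standard error (bars, edgeR, 3 libraries a group) of 37 of the 38 tested Hox genes by cluster, with paralog groups running from 1 at the top to 13 at the bottom; red marks an unadjusted p under 0.05, and no gene was called after adjustment. Points of HoxA and HoxD lie mostly left of 0 and points of HoxC right of it, while Hoxa13, Hoxd12 and Hoxd13 lie near 0.

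The HoxA genes of groups 9, 10 and 11 had the smallest p-values among the lower members. Hoxa11 (chr6:52242106-52245810, minus strand), needed for the forearm skeleton together with Hoxd11, had 63.2, 56.8 and 67.9 CPM in knockout libraries against 85.6, 83.0 and 96.5 CPM in wild-type libraries. Every knockout library lay below every wild-type library. The log2 fold change was -0.50 (SE 0.10, adjusted p = 0.128, edgeR), and without wild-type replicate 1 it was -0.52 (adjusted p = 0.0643). Hoxa10 had 90.3, 85.5 and 78.5 CPM in knockout libraries against 116, 102 and 115 CPM in wild-type libraries, again with no overlap (log2 fold change -0.39, SE 0.09, adjusted p = 0.219, edgeR). Its more abundant processed transcript, with no coding frame, did not overlap in TPM (log2 fold change -0.58, SE 0.20). The most abundant coding transcript overlapped, at 30.6, 26.3 and 17.6 TPM in knockout against 24.8, 39.3 and 40.0 TPM in wild-type libraries. Its log2 fold change was -0.36 (SE 0.20), and that of the other coding transcript was 0.03 (SE 0.12). The gene-level value is thus not a measure of coding Hoxa10 alone. Hoxa9 had 46.6, 57.2 and 48.8 CPM in knockout libraries against 61.2, 67.8 and 80.8 CPM in wild-type libraries, also with no overlap (log2 fold change -0.46, SE 0.13, adjusted p = 0.320, edgeR). The TPM of Hoxa9, unlike its CPM, did overlap between genotypes, at 29.9, 37.5 and 28.8 in knockout against 32.3, 52.1 and 58.9 in wild-type libraries.

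The choice of test decided the calls on these genes. DESeq2 called Hoxa11 (adjusted p = 0.00356), Hoxa10 (adjusted p = 0.0316) and Hoxc8 (adjusted p = 0.0334), where it called 1.77% of all genes. edgeR's likelihood ratio test called Hoxa11 (adjusted p = 0.0106), where it called 1.54% of all genes, and limma-voom called none, where it called 0.266%. The adjusted p of Hoxa11 ran between 0.00356 and 0.478 over all 22 alternatives. In the authors' deposited table of 941 genes, 9 Hox genes were listed. Hoxa11 alone of them had an adjusted p under 0.05 (logFC -0.497, 0.00908), as did 228 of all the listed genes. The largest p-value in that table was 0.0506, so genes with larger values are not in it. It gives likelihood ratio scores for the same comparison of handpads and is not separate evidence.

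HoxD members of groups 8 and 9 had values of the same direction. Hoxd9, which acts with Hoxa9 in the proximal limb, had 12.9, 17.5 and 18 CPM in knockout libraries against 24.4, 18.8 and 21.9 CPM in wild-type libraries, with no overlap (log2 fold change -0.42, SE 0.16, adjusted p = 0.552, edgeR). Hoxd8 had 13.6, 10.9 and 16.0 CPM in knockout libraries against 23.5, 14.7 and 17.8 CPM in wild-type libraries, which overlapped (log2 fold change -0.47, SE 0.20, adjusted p = 0.680, edgeR), and without wild-type replicate 1, the highest library, the log2 fold change was -0.27. Among low members, Hoxa3 was at 4.59, 5.33 and 3.77 CPM in knockout against 5.92, 5.75 and 8.59 CPM in wild-type libraries, without overlap (log2 fold change -0.57, SE 0.22, adjusted p = 0.570, edgeR), and at -0.36 without wild-type replicate 3. In TPM, Hoxa3 overlapped between genotypes. Over all genes, 6.18% lay wholly lower in CPM in knockout libraries, against 5 of the 38 Hox genes.

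Hoxa13 and the HoxD genes from Hoxd10 to Hoxd13 gave smaller differences than Hoxa9, Hoxa10 and Hoxa11. Hoxd13 had 264, 346 and 209 CPM in knockout libraries against 334, 260 and 261 CPM in wild-type libraries, so that the knockout libraries spread on both sides of the wild-type ones (log2 fold change -0.06, SE 0.19, adjusted p = 0.994, edgeR). Hoxa13 had 68.7, 73.3 and 51 CPM in knockout against 71.4, 63.0 and 59.0 CPM in wild-type libraries (log2 fold change -0.0026, SE 0.14). For both genes knockout replicate 2 was the highest of all 6 libraries and knockout replicate 3 the lowest. Hoxd12 (0.07, SE 0.19), Hoxd11 (-0.12, SE 0.11) and Hoxd10 (-0.26, SE 0.14) also overlapped between genotypes. Without 1 library the log2 fold change ran between -0.27 and 0.0987 for Hoxd13, -0.11 and 0.14 for Hoxa13, and -0.19 and 0.21 for Hoxd12, in each case lowest without knockout replicate 2 and highest without knockout replicate 3. These p-values do not show that the levels were equal.

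**Figure D4:**
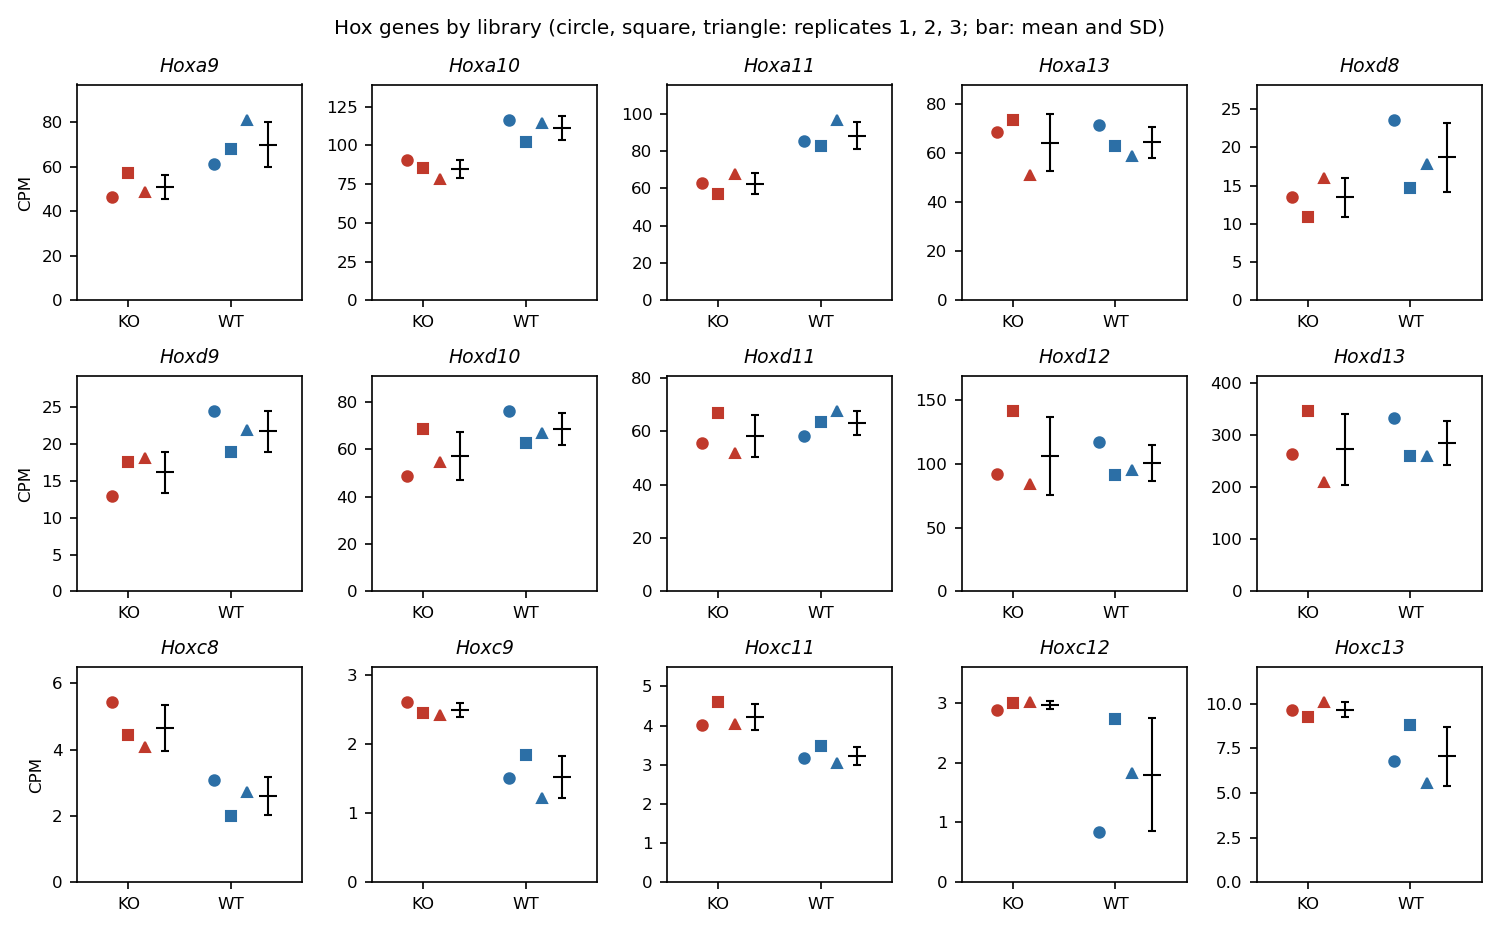
CPM of 15 Hox genes in each library, 3 Grhl3 knockout libraries (KO, red) left of 3 wild-type libraries (WT, blue), with the mean and SD as a black bar and each panel starting at 0. The KO points of Hoxa9, Hoxa10, Hoxa11 and Hoxd9 sit below all WT points, those of the HoxC genes sit above, and those of Hoxa13, Hoxd12 and Hoxd13 overlap.

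HoxC genes had the opposite direction at low levels. Hoxc8 had 5.42, 4.44 and 4.09 CPM in knockout libraries against 3.10, 2.0 and 2.72 CPM in wild-type libraries, with no overlap (log2 fold change 0.84, SE 0.22, adjusted p = 0.274, edgeR). Hoxc9 had 2.60, 2.44 and 2.42 CPM in knockout against 1.51, 1.84 and 1.22 CPM in wild-type libraries (log2 fold change 0.70, SE 0.22, adjusted p = 0.427, edgeR). Hoxc11, Hoxc12 and Hoxc13 also lay wholly higher in the knockout, at log2 fold changes of 0.39 (SE 0.17), 0.71 (SE 0.36) and 0.45 (SE 0.18). Hoxc12 had 2.88, 2.99 and 3.0 CPM in knockout libraries against 0.845, 2.73 and 1.82 CPM in wild-type libraries, the lowest being wild-type replicate 1. Its log2 fold change was 0.37 without that library, 1.15 without the second wild-type library and 1.90 when Y-linked counts entered the fit, and that of Hoxc13 was 0.30 without wild-type replicate 3. In all, 5 HoxC genes lay wholly higher in CPM, against 6.74% of all genes. In TPM, Hoxc8 still lay wholly higher, while Hoxc9, Hoxc11, Hoxc12 and Hoxc13 overlapped between genotypes. With a term for Y-linked counts, 7 of 9 HoxC genes kept a positive fold change. The 9 tested HoxB genes had log2 fold changes between -0.35 and 0.59, none of them at an unadjusted p under 0.05. Beside these values stand the 8 markers of the surface epithelium. They summed to 3392, 2496 and 3298 CPM in knockout libraries against 1335, 2182 and 1307 CPM in wild-type libraries. Of the 8, 6 were higher at an unadjusted p under 0.05, against 3.81% of all genes. Cldn6 alone of them was called, where 0.431% of all genes were called. The 7 cartilage markers all had negative fold changes with a median of -0.46, where 48.8% of all genes had positive ones. These markers summed to 3701, 3543 and 2292 CPM in knockout against 3688, 5554 and 4002 CPM in wild-type libraries. The part of these cell types in the Hox values was not tested, and in bulk tissue fewer cells of a type and less RNA per cell cannot be told apart.

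TALE cofactors bind DNA together with Hox proteins. None of the 9 was called by edgeR's quasi-likelihood test, where 3 had an unadjusted p under 0.05 (33.3%, against 7.22% of all genes). DESeq2, which called 1.77% of all genes, called Meis1 and Meis2. So did the quasi-likelihood test with a transcript length term, which called 203 of 16938 genes. The likelihood ratio test, which called 1.54% of all genes, called Meis2. Meis2, the most abundant of the Meis genes, had 53.2, 57.2 and 57.2 CPM in knockout libraries against 36.4, 42.9 and 41.7 CPM in wild-type libraries, with no overlap (log2 fold change 0.47, SE 0.10, adjusted p = 0.128, edgeR). Meis1 had 17.4, 18.9 and 19.7 CPM in knockout against 10.8, 14.3 and 13.2 CPM in wild-type libraries (log2 fold change 0.55, SE 0.13, adjusted p = 0.219, edgeR). Meis3 had 7.77, 8.89 and 9.70 CPM in knockout against 6.44, 7.18 and 7.08 CPM in wild-type libraries (log2 fold change 0.35, SE 0.14, adjusted p = 0.646, edgeR). In CPM, all 3 Meis genes lay wholly higher in the knockout, as did 6.74% of all genes. The TPM of Meis3 was similar, at 8.67 ± 0.69 in knockout and 8.47 ± 2.1 in wild-type libraries (SD, n = 3 each). Pbx4 had a log2 fold change of -0.28, which was -0.023 without wild-type replicate 1. The median over the 9 cofactors was 0.04. The authors' deposited table lists Meis2 at a logFC of 0.468 with an adjusted p of 0.0179 and Meis1 at 0.549 with 0.0882.

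**Figure D5:**
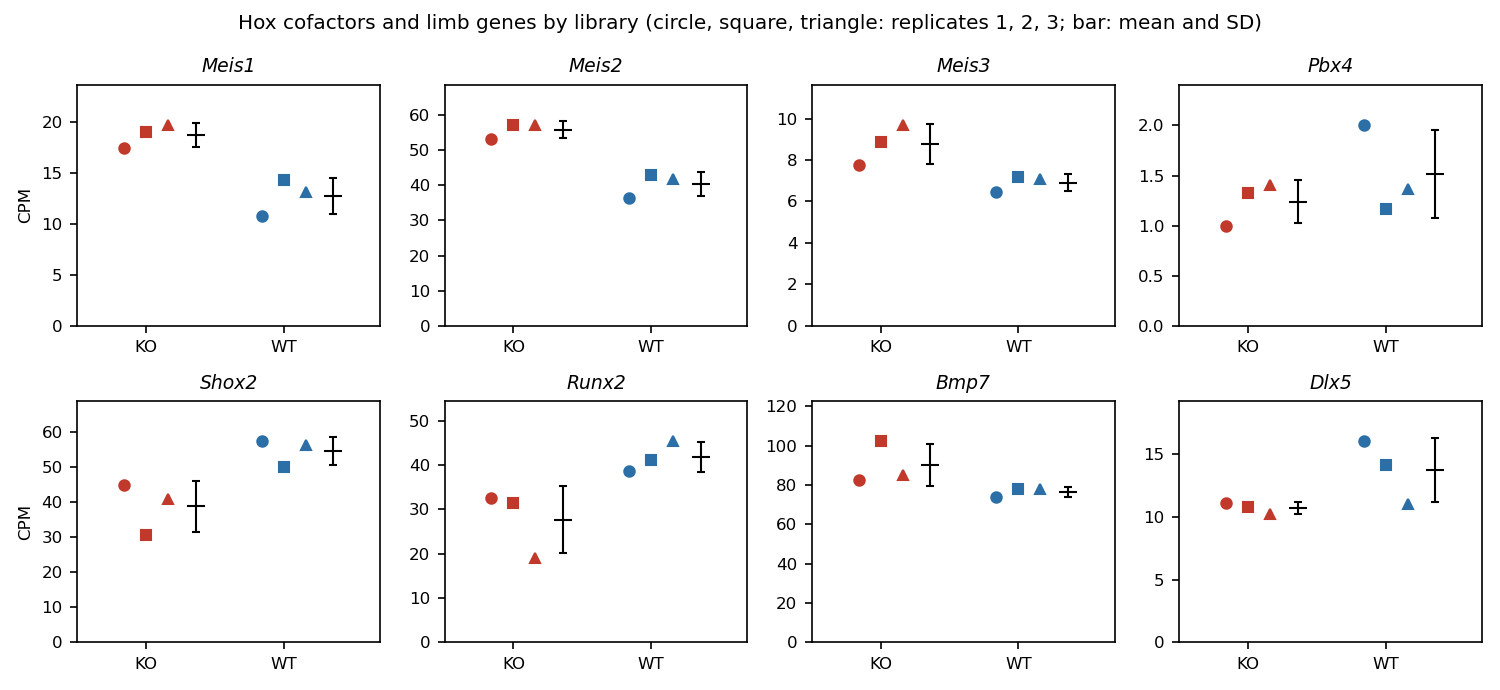
CPM of 4 Hox cofactors (top) and 4 limb genes linked to Hox proteins (bottom) in each library, Grhl3 knockout (KO, red) left of wild-type (WT, blue), with the mean and SD in black. Meis1, Meis2, Meis3 and Bmp7 have all KO points above all WT points, and Shox2 and Runx2 have all KO points below.

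Genes linked to Hox proteins in the limb were read from a list of 30, all tested, none of them called by edgeR's quasi-likelihood test or by any alternative. Of them, 24 had negative fold changes and 6 positive ones (20% positive, against 48.8% of all genes), the median was -0.12 against -0.0045, and 5 had an unadjusted p under 0.05 (16.7%, against 7.22% of all genes). Shox2, a gene of proximal limb elements, had 44.9, 30.7 and 40.9 CPM in knockout libraries against 57.5, 50.2 and 56.4 CPM in wild-type libraries, with no overlap (log2 fold change -0.49, SE 0.14, adjusted p = 0.361, edgeR). Runx2, a regulator of bone formation, had 32.7, 31.5 and 19.0 CPM in knockout against 38.7, 41.2 and 45.4 CPM in wild-type libraries, with no overlap (log2 fold change -0.59, SE 0.19, adjusted p = 0.450, edgeR). Dlx5 (-0.36, SE 0.15) and Runx3 (-0.39, SE 0.17) were lower and Bmp7 (0.23, SE 0.10) higher at that threshold, Runx3 being named after its value was seen. Without knockout replicate 3 the log2 fold change of Runx2 was -0.38 and that of Runx3 -0.22; that of Dlx5 was -0.23 without wild-type replicate 1, and that of Bmp7 0.13 without knockout replicate 2.

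Of 12 tested genes beside the clusters none was called by edgeR's quasi-likelihood test or by any alternative. Only 1 had an unadjusted p under 0.05 (8.33%, near the 7.22% of all genes). This was Skap2, at 17.2, 15.5 and 13.3 CPM in knockout against 12.4, 11.9 and 12.5 CPM in wild-type libraries (log2 fold change 0.32, SE 0.13, adjusted p = 0.629, edgeR), followed by Skap1, Atf2 and Smug1 at 0.67, -0.14 and 0.13. The list's long non-coding RNAs, Hotair and Hottip among them, were not analysed here. Of 26 tested chromatin regulators none was called by edgeR's quasi-likelihood test, and the median was -0.07. An unadjusted p under 0.05 was seen for 2 (7.69%, near the 7.22% of all genes). DESeq2 and the likelihood ratio test each called 1, Kdm6a, where they called 1.77% and 1.54% of all genes. Kdm6a, an X-linked demethylase of histone H3, had 85.6, 80.3 and 72 CPM in knockout against 60.6, 57.6 and 56.8 CPM in wild-type libraries, with no overlap (log2 fold change 0.44, SE 0.09, adjusted p = 0.129, edgeR). Cbx7, Bmi1 and Kmt2d had log2 fold changes of -0.50, -0.20 and -0.27. The quasi-likelihood fit with a term for Y-linked counts also called no chromatin regulator. Its Kdm6a fold change is not given here, and the part of Y-linked counts in that value was not assessed.

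Promoters in RefSeq (GRCm38.p6) were given for 22 of the 39 symbols in 24 windows of 250 bases upstream of the start, and were searched on both strands. The grainyhead motif AACNGGTT was found in 2 of the 24, those of Hoxa6 and Hoxd13, against 1.79% of 32851 promoters. Capitals below mark it, in the orientation of the gene, in chr2:74667975-74668224 (plus strand) and in chr6:52208673-52208922 (minus strand).
Hoxd13: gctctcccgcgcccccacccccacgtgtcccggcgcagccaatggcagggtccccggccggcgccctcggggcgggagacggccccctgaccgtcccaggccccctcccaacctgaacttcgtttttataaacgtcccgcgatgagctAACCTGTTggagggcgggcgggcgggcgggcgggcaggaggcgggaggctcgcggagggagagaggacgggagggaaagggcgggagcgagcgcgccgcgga
Hoxa6: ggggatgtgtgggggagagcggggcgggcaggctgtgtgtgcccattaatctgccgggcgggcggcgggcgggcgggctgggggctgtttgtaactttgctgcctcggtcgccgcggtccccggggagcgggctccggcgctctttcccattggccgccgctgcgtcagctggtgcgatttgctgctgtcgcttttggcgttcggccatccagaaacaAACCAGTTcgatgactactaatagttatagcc
The PBX-HOX motif TGATNNAT was found in 4 of the 24 (Hoxa2, Hoxb1, Hoxb8 and Hoxd11), against 7.68% of promoters, and the group 13 motif TCGTAAA in 1 (Hoxb8), against 0.478%. A match is a description of the letters in these windows, and no 2 of these matches overlapped.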

How the data were processed

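Handpad RNA was prepared with an RNeasy Micro kit and a TruSeq stranded mRNA kit, per the labels' protocols. Reads were handled with FastQC and kallisto on build mm10, per the submitters' processing notes; the version, transcript set and strand setting of kallisto: not given in the sources used here. Each deposited table holds, per its header, estimated counts and TPM for 111462 transcripts. The authors' deposited comparison table holds a p-value, a likelihood ratio score, a log2 CPM and the log2 fold change of each gene, per the file headers.

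Transcript identifiers without versions were looked up in GENCODE annotation of that build (110203 matched, 1259 with 0.504% to 0.566% of counts did not). Estimated counts were summed per gene and rounded; TPM was summed and used for levels only. edgeR 4.0.16 (R 4.3.3) scaled libraries by TMM, filtered genes (filterByExpr, minimum count 10, minimum total 15), and tested knockout against wild-type with the quasi-likelihood test and Benjamini-Hochberg adjustment; the SE is the size of the log2 fold change divided by the square root of F. Calls were at an adjusted p under 0.05. Depth ran from 38052692 to 56037639 estimated counts, and, with no molecular identifiers, reads may be copies of 1 molecule. limma 3.58.1 and DESeq2 1.42.0 served as alternatives, with other scalings, filters, terms and left-out libraries. The fits were tested on simulated data. The rule for named genes took the Hox genes, Grhl3 and of each pathway list up to 4 tested genes with the smallest p. The members and lists were chosen with earlier results of these data known. The values of 1 Hox gene, and 1 sequence, are not reported here.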

Additional observations from a re-analysis of the deposited data

How the results depend on the processing

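No Hox gene was called in the quasi-likelihood fits under other scalings, filters or terms or without any 1 library; DESeq2 called 3 and the likelihood ratio test 1. For the TALE cofactors the transcript length term and DESeq2 called 2 each and the likelihood ratio test 1, and for the chromatin regulators DESeq2 and the likelihood ratio test called 1 each. The number of Hox genes higher at an unadjusted p under 0.05 was 1 with the effective length offset, the Y-linked term, log2(TPM + 0.1) and log2(TPM + 1), and 2 to 4 without a library; the number lower was 3 to 7 without a library. All alternatives of these counts, and the fits on protein-coding transcripts, were added after the data were seen. With a replicate block 4 were lower, 3 higher and 0 called, and 47 of all genes were called against 73. Same-numbered libraries had correlations of deviations of -0.24, -0.09 and -0.16, and differently numbered ones had -0.12 to 0.22. With 3 libraries a group these values cannot show whether the numbers pair the libraries.

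With CPM in place of TPM the shares were 32.6% in knockout and 36.8% in wild-type libraries for HoxA, 1.67% in knockout for HoxB, 4.21% in knockout and 2.76% in wild-type for HoxC, 61.5% in knockout and 58.9% in wild-type for HoxD, and 93.4% in knockout and 93.4% in wild-type for groups 9 to 13. With protein-coding transcripts only they were 30.5% in knockout and 34.7% in wild-type for HoxA, 62.2% in knockout and 60.1% in wild-type for HoxD, and 91.4% in wild-type for groups 9 to 13.

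Of 809 fold changes of 37 genes under alternatives, 35 changed sign, in 14 genes; 23 genes had none, Hoxa9, Hoxa10, Hoxa11, Hoxc8 and Hoxc9 among them. Reversed log2 values were 0.0050 (no filter) and 0.0028 (effective length offset) for Hoxa13; 0.35 (effective length offset), 0.20 and 0.13 (log2(TPM + 0.1) and log2(TPM + 1)) for Hoxb3; 0.0115 (limma-voom) for Hoxb8; -0.0355 and -0.0259 for Hoxb9, -0.0125 and -0.0076 for Hoxc4 and -0.0289 and -0.0277 for Hoxd12 with log2(TPM + 0.1) and log2(TPM + 1); and 0.0194 (protein-coding transcripts) for Hoxd11. With the Y-linked term they were -0.38 for Hoxb7, -0.15 for Hoxb9, -0.017 for Hoxc4, -0.27 for Hoxc5, 0.0064 for Hoxd11, -0.16 for Hoxd12 and 0.0783 for Hoxd4. Without 1 library the range was -0.11 to 0.14 for Hoxa13, -0.36 to 0.087 for Hoxa4, -0.33 to 0.0146 for Hoxb2, -0.25 to 0.0944 for Hoxb8, -0.12 to 0.15 for Hoxb9, -0.0547 to 0.17 for Hoxc4, -0.79 to 0.24 for Hoxd1, -0.19 to 0.21 for Hoxd12 and -0.27 to 0.0987 for Hoxd13. The cause was not tested.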
